A study of Mus musculus with 2 samples.

Results

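Mir216a, Mir216b and Mir217 are 3 microRNA loci that lie close together on one strand of mouse chromosome 11. They were measured here in the facial prominences of mouse embryos, the swellings of mesenchyme and covering epithelium that fuse into the face. The 3 loci were chosen by position and because each had a lower level in replicate 2 than in replicate 1. They are 3 of the 1973 microRNA loci in the count tables. The labels give 1 group with 2 biological replicates: B6NCrl embryos of both sexes at day 11.5, described as healthy, with no treatment or engineered allele named. Replicate 2 was a pool of tissue from 88 embryos and replicate 1 a pool from 109, so a replicate averages over many animals. The labels list the same donor for both pools. Total RNA was made into small-RNA libraries of fragments under 30 bases, and 2319881 counts fell on the sense strand of the loci in replicate 2, against 1941745 in replicate 1. With 1 library on each side of the comparison no test between the pools exists, and intervals below cover counting error only.

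A microRNA gene is transcribed as a longer RNA that folds into a hairpin, and Drosha and then Dicer cut the hairpin into a short duplex. One strand of the duplex, from the 5p or the 3p arm, guides Argonaute to messenger RNAs that pair with its seed, and those messengers are translated less or decay faster. The Mir216 and Mir217 microRNAs are best known from the exocrine pancreas, where acinar cells hold them at high levels. Of their reported targets, miR-217 acts on Sirt1 in human endothelial cells. Messenger RNA was not measured in these libraries, so nothing below concerns targets.

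The mature sequences show how the loci are related, because the seed decides which messengers a microRNA can pair with. Both arms of each hairpin are given below as annotated by RefSeq on GRCm38.p6, 5′ to 3′, with the seed (bases 2 to 8) in capitals. All 3 loci were found in that annotation.
miR-216a-5p: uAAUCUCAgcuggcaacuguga
miR-216b-5p: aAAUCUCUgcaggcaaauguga
miR-217-5p: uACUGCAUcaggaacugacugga
miR-216a-3p: cACAGUGGucucugggauuaug
miR-216b-3p: aCACUUACcuguagagauucuu
miR-217-3p: cAUCAGUUccuaaugcauugccu

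The 5p microRNAs of Mir216a and Mir216b were alike at 18 of 22 positions (81.8%), compared without gaps. The differences, written as the base of miR-216a-5p, the position from its 5′ end and the base of miR-216b-5p, were U1A, A8U, U11A and C17A. Bases 2 to 7 were therefore shared and the last base of the seed was not. Among the 1738 mouse mature sequences in the table, these 2 were the only ones to hold that run at bases 2 to 7. None of the 6 arms had its full seed in another mature sequence of the table. The miR-217-5p seed has other letters, so the 3 loci give 3 different full seeds, with the Mir216 pair as near relatives.

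The hairpins are shown because they are the features to which reads were assigned. They are given on the plus strand with the mature arms in capitals.
Mir216b, 86 bases: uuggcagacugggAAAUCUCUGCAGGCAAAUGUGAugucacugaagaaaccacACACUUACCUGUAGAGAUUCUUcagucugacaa
Mir216a, 72 bases: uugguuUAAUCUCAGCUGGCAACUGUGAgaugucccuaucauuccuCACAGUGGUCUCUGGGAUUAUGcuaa
Mir217, 108 bases: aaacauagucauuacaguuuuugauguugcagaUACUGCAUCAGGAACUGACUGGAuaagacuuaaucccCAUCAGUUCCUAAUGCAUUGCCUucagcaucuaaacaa

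The predicted fold had a free energy of -36.7 kcal/mol with 33 base pairs for Mir216b, -30.0 kcal/mol with 27 pairs for Mir216a and -35.7 kcal/mol with 33 pairs for Mir217. Reads that could come from several positions are kept apart from the locus counts, so shared stretches could hide reads. On the same strand the longest run that any of the 3 hairpins shared with another of the 1005 hairpins was 12 bases for Mir216b, 12 for Mir216a and 11 for Mir217. Between the 3 hairpins themselves the longest shared run was 6 bases, despite the likeness of the 5p arms. Apart from the overlapping Mir216c described below, no other hairpin shared 20 bases in a row with any of them on either strand. Only exact runs in annotated hairpins were compared. The rest of the genome was not searched, so whether reads were lost to other positions was not tested. The counts do not separate the arms, so which strand of each duplex was present was not measured.

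On GRCm38 (mm10) Mir216b lies at chromosome 11, 28746191 to 28746276, Mir216a at 28757012 to 28757083 and Mir217 at 28763728 to 28763835, all on the plus strand. The gap between Mir216b and Mir216a is 10.7 kb and that between Mir216a and Mir217 is 6.65 kb, and the whole cluster spans 17.6 kb. Mir216a and Mir217 lie in introns of Gm12082, a long non-coding RNA that GENCODE M21 places at 28751633 to 28815767 and marks as a host of small RNAs. Mir216b lies outside Gm12082 and inside the span of RefSeq's Mir217hg (28730633 to 28751781), whose annotated end overlaps the start of Gm12082. Whether the 3 hairpins come from 1 transcript was not measured.

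**Figure D1:**
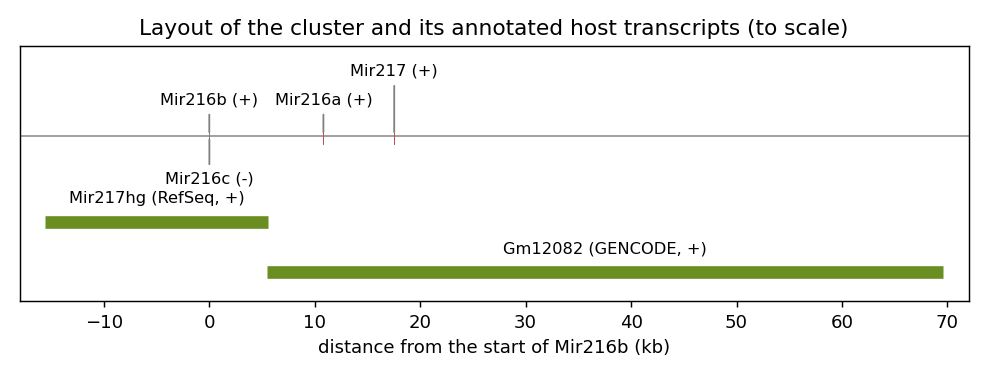
Layout of the cluster, with distance from the start of Mir216b in kb on the horizontal axis, the 4 annotated hairpins on the upper line (strand in brackets) and the annotated host transcripts as green bars. Mir216b falls under Mir217hg, while Mir216a at 10.8 kb and Mir217 at 17.5 kb fall under Gm12082.

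A further hairpin, Mir216c, is annotated on the minus strand at 28746198 to 28746266, inside Mir216b, and its 69 bases are the complement of Mir216b. It is not among the loci of the count tables (GENCODE M4) and has no count of its own here. The strand opposite Mir216b received 0 counts in both pools. With CPM as counts scaled to a total of 1000000 sense counts at the loci, a count of 0 still permits up to 1.29 CPM in replicate 2, against 1.55 CPM in replicate 1 (3 counts). The strands opposite Mir216a and Mir217 also received 0 counts in both pools. Every count at the 3 loci was thus on the annotated strand.

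Mir217 was the most abundant of the 3 in both pools. It had 199 counts in replicate 2, against 377 in replicate 1, or 85.8 CPM (95% interval 74.3 to 98.6) in replicate 2, against 194 CPM (175 to 215) in replicate 1. Mir216b came second, with 92 counts in replicate 2, against 152 in replicate 1, or 39.7 CPM (32.0 to 48.6) in replicate 2, against 78.3 CPM (66.3 to 91.8) in replicate 1. Mir216a was the least abundant, with 38 counts in replicate 2, against 51 in replicate 1, or 16.4 CPM (11.6 to 22.5) in replicate 2, against 26.3 CPM (19.6 to 34.5) in replicate 1. The counting intervals of the pools are apart for Mir217 and Mir216b and overlap for Mir216a. Averaged over the pools the levels were 140 ± 76.6 CPM for Mir217, 59.0 ± 27.3 CPM for Mir216b and 21.3 ± 6.99 CPM for Mir216a (SD, n = 2). The mature forms are 22 or 23 bases long, so levels of the loci were compared without scaling to length.

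Together the cluster held 329 counts in replicate 2, against 580 in replicate 1. That is 142 CPM (127 to 158) in replicate 2, against 299 CPM (275 to 324) in replicate 1, or 0.0142% of the sense counts of replicate 2 and 0.0299% of those of replicate 1. The 3 loci are minor components of the facial profile. Of 351 loci with at least 10 counts in both pools, 198 lay above Mir217, 247 above Mir216b and 295 above Mir216a in mean level, and the median locus of the 351 stood at 192 CPM. In mean level all 3 loci are thus below the median detected locus, though Mir217 reached 194 CPM in replicate 1.

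**Figure D2:**
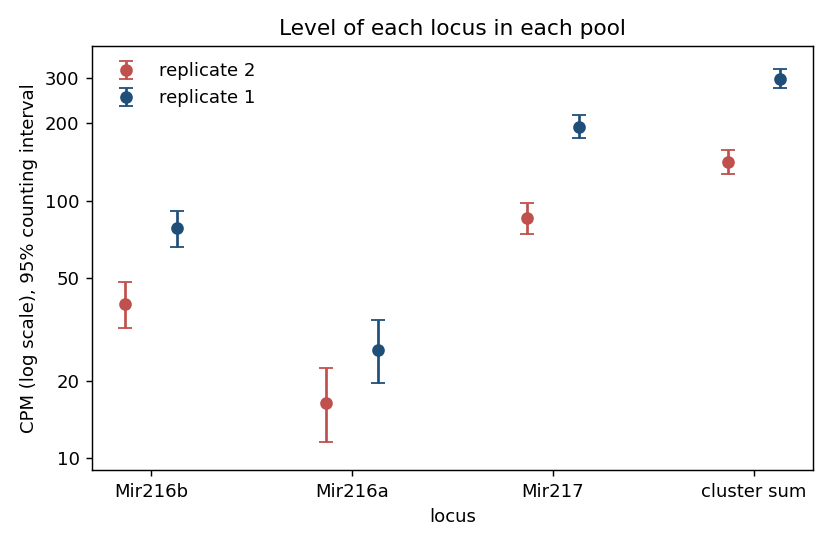
Level of Mir216b, Mir216a, Mir217 and their sum in CPM on a log scale, with replicate 2 (red) left of replicate 1 (blue) and bars for the exact 95% counting interval. Mir217 leads in both pools, and each locus is lower in replicate 2, with overlapping intervals for Mir216a alone.

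In the ranking of all loci by mean CPM, Mir217 took place 199, Mir216b 248 and Mir216a 296. Mir217 stood at place 232 in replicate 2, against 177 in replicate 1, Mir216b at 267 in replicate 2, against 236 in replicate 1, and Mir216a at 309 in replicate 2, against 284 in replicate 1. The neighbours in rank did not differ from the 3 loci beyond the spread between pools. Mir412 (147 ± 27.0 CPM) and Mir384 (139 ± 6.14 CPM) flanked Mir217. Mir7-2 (59.7 ± 1.46 CPM) and Mir34b (58.0 ± 6.32 CPM) flanked Mir216b, and Gm23134 (22.3 ± 4.13 CPM) and Mir499 (19.8 ± 13.4 CPM) flanked Mir216a. The exact places among such neighbours are therefore not settled by these libraries.

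The order Mir217, Mir216b, Mir216a was the same in both libraries and was not used to choose the loci. Mir217 exceeded Mir216a by 5.24-fold in replicate 2 (log2 ratio 2.39, interval 1.88 to 2.93) and 7.39-fold in replicate 1 (2.89, 2.46 to 3.34). Mir216b exceeded Mir216a by 2.42-fold in replicate 2 (1.28, 0.72 to 1.86) and 2.98-fold in replicate 1 (1.58, 1.11 to 2.06). As point values, both differences were larger in each library than the log2 ratio between pools of either locus. For Mir216b over Mir216a in replicate 2, the interval includes the size of the Mir216b ratio between pools (0.98). Mir217 exceeded Mir216b by 2.16-fold in replicate 2 (1.11, 0.75 to 1.49) and 2.48-fold in replicate 1 (1.31, 1.04 to 1.59), and in replicate 2 this was smaller than the log2 ratio of Mir217 between pools (-1.18). Sequences are also ligated and amplified unequally, an effect on these ratios that was not measured.

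As shares of the cluster's counts, Mir217 made up 60.5% (55.0 to 65.8) in replicate 2, against 65.0% (61.0 to 68.9) in replicate 1. Mir216b made up 28.0% (23.2 to 33.1) in replicate 2, against 26.2% (22.7 to 30.0) in replicate 1. Mir216a made up 11.6% (8.30 to 15.5) in replicate 2, against 8.79% (6.62 to 11.4) in replicate 1. The intervals of the pools overlap for each locus, so a shift in the cluster's make-up was not detectable at this depth.

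The difference between the pools is what chose the loci and is given as a description, with no test. The log2 ratio of replicate 2 over replicate 1 was -1.18 for Mir217 (interval -1.43 to -0.93), -0.98 for Mir216b (-1.37 to -0.60) and -0.68 for Mir216a (-1.33 to -0.05). For the summed cluster it was -1.07 (-1.27 to -0.88), a level 2.11-fold higher in replicate 1. The member nearest to a ratio of 0 was Mir216a, and no measured locus of the cluster lay on the other side of it. In bulk tissue, fewer cells that express the cluster and less of its RNA per cell cannot be told apart.

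Against this stands the background of all loci. Of 257 loci that averaged 100 counts or more, 2 were lower in replicate 2 by over 2-fold (0.778%), Mir184 and Mir217, and 5 differed by over 2-fold in either direction (1.95%). In the same set 127 were lower by any amount (49.4%). Mir217 and Mir216b held places 2 and 3 from the lowest ratio in that set, after Mir184 at -2.26. Mir216a, with a mean count of 44.5, is outside it. With a minimum mean count of 20, the share lower by over 2-fold was 0.898% of 334 loci and Mir216a held place 12 from the lowest. Low counts scatter more. The central 90% of log2 ratios ran from -0.57 to 1.16 among the 77 loci with mean counts from 20 to below 100, and from -0.44 to 0.52 among the 119 loci from 100 to below 1000. All 3 loci lay below the lower bound of their own count class. Because they were chosen for this direction, nothing is read from these places.

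**Figure D3:**
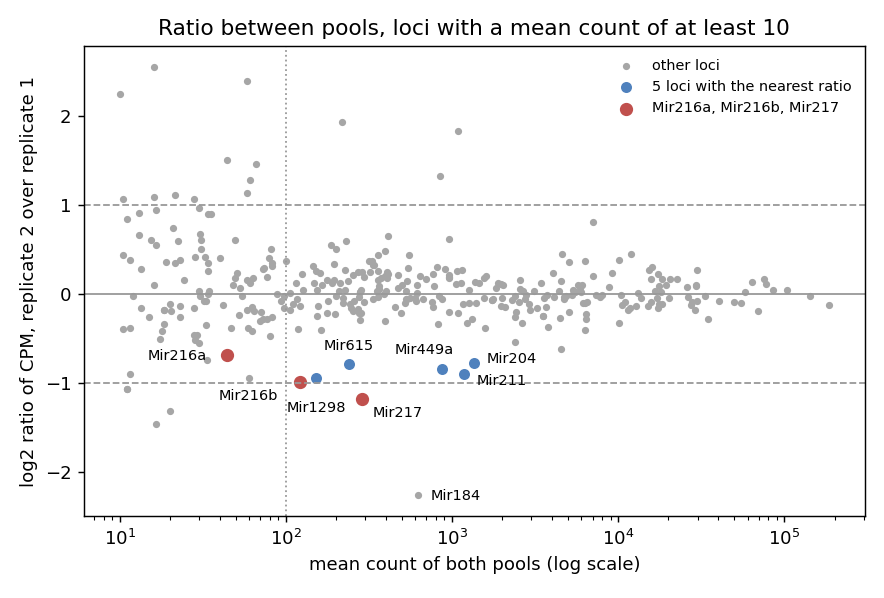
Log2 ratio of CPM between replicate 2 and replicate 1 against the mean count of both pools on a log scale, 1 point per locus averaging 10 counts or more; dashed lines mark 2-fold and the dotted line a mean count of 100. The cluster (red) lies at -1.18, -0.98 and -0.68, near the 5 loci with the nearest ratio (blue) and above Mir184.

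The loci whose ratio was nearest to that of the summed cluster were searched among the 255 others that averaged 100 counts or more. With only 2 libraries, likeness means a similar log2 ratio and nothing more. The nearest was Mir1298, which lies in the serotonin receptor gene Htr2c, with 116 counts in replicate 2, against 186 in replicate 1 (log2 ratio -0.94). Mir211, in the melanocyte and retina gene Trpm1, had 396 CPM in replicate 2, against 738 CPM in replicate 1 (-0.90). Mir449a, known from multiciliated epithelium, had 299 CPM in replicate 2, against 534 CPM in replicate 1 (-0.84). Mir615, in the Hoxc cluster, had 84.9 CPM in replicate 2, against 146 CPM in replicate 1 (-0.78), and Mir204, in Trpm3, had 483 CPM in replicate 2, against 825 CPM in replicate 1 (-0.77). These 5 loci lie on chromosomes X, 7, 13, 15 and 19, none of them on chromosome 11.

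Neighbouring loci on chromosome 11 were examined next. The 79 loci without a match in GENCODE M21 have no position and were left out of this search. No other placed locus lies within 500 kb of the cluster. The nearest with at least 20 counts in all was Mir218-2, 6853 kb downstream, with 109 counts in replicate 2, against 103 in replicate 1. Of the 20 other chromosome 11 loci that averaged 20 counts or more, 12 were lower in replicate 2, with a median log2 ratio of -0.06 and a lowest value of -0.62 for Mir10a. Among all 334 loci at that minimum, 48.8% were lower in replicate 2.

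Levels of other clusters were set beside this one. Neighbouring loci on 1 strand with gaps of at most 20 kb formed 14 clusters with at least 3 loci of mean count 20 or more. At the cluster of Mir216b to Mir217 the most abundant locus exceeded the least by 6.56-fold in mean level (log2 range 2.71). The median range of the 14 clusters was 5.04 on the log2 scale, and 11 of them had a wider range. Clusters with more loci can span more, and among the 6 with 3 such loci it took place 4 from the widest. Its median log2 ratio between pools was -0.98 and the next lowest was -0.33, that of Mir429 to Mir200b. Its ratios spanned 0.50 on the log2 scale, against a median span of 0.31 over the 14. All members were lower in replicate 2 in 3 of the 14 clusters. Since the loci were chosen for a lower level in replicate 2, nothing is read from the cluster's place by this ratio. With gaps of at most 10 kb Mir216b falls away from the other 2 loci and the cluster no longer has 3 members.

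**Figure D4:**
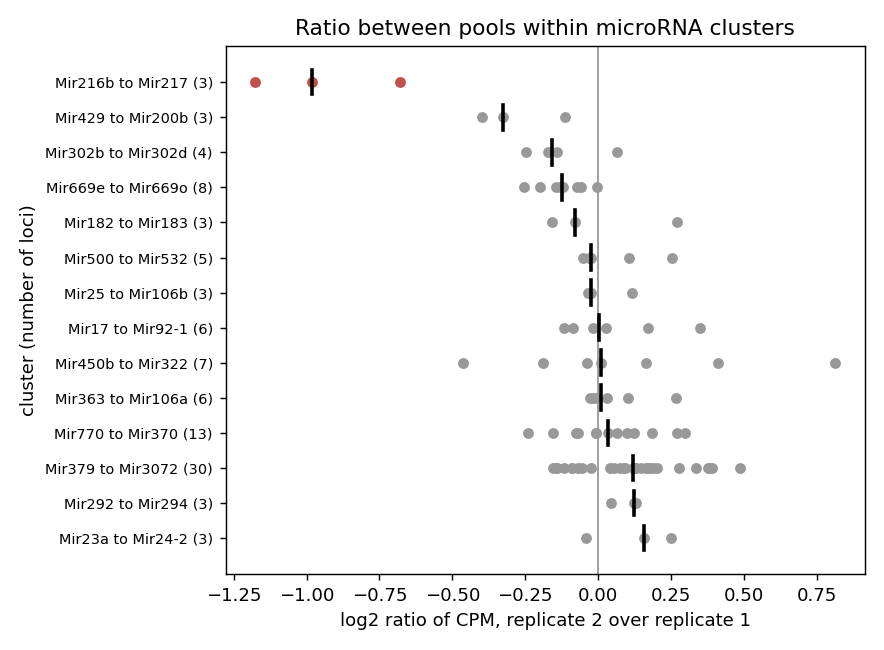
Log2 ratio of CPM between replicate 2 and replicate 1 for each locus (points) in 14 microRNA clusters, ordered by their median (black bar), with the number of loci in brackets. The cluster of Mir216b to Mir217 (red) has its median at -0.98, against -0.33 for the next; its loci were chosen for this direction.

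Lists of microRNAs known from other tissues are given beside the cluster. They were drawn up with earlier results of these data known. Among the 334 loci that averaged 20 counts or more, 48.8% were lower in replicate 2 and 3.89% lay over 2-fold apart in either direction, and the counts of each list are to be read against these shares. The pancreas and endocrine list is the nearest by known tissue. All 7 of its loci reached 10 counts in both pools, and their summed level was 2587 CPM in replicate 2, against 2569 CPM in replicate 1. Of these 3 were lower and 4 higher in replicate 2, none by over 2-fold, with log2 ratios from -0.10 to 0.23. Mir375, the islet and neuroendocrine microRNA, had 876 CPM in replicate 2, against 833 CPM in replicate 1, and Mir148a had 815 CPM in replicate 2, against 846 CPM in replicate 1. The list's median log2 ratio was 0.00, against 0.01 for the 257 loci of the background. The liver and gut list summed to 225 CPM in replicate 2, against 204 CPM in replicate 1. Its most abundant loci were Mir192, at 98.7 CPM in replicate 2, against 96.3 CPM in replicate 1, and Mir194-2, at 77.6 CPM in replicate 2, against 89.6 CPM in replicate 1. Of its 3 loci averaging 20 counts or more, 1 was lower and 2 were higher in replicate 2. The hepatocyte locus Mir122 was higher by over 2-fold, at 44.0 CPM in replicate 2, against 16.0 CPM in replicate 1 (log2 ratio 1.46). Of the loci on these lists that averaged 20 counts or more, 0 were lower by over 2-fold.

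The choroid plexus and ciliated epithelium list was lower in replicate 2 as well. Its 10 measured loci summed to 1994 CPM in replicate 2, against 2728 CPM in replicate 1. Of 5 that averaged 20 counts or more, 4 were lower in replicate 2, and 1 of these was past 2-fold. The median log2 ratio of the 5 was -0.84. Mir34c was its most abundant member at 1567 CPM in replicate 2, against 2016 CPM in replicate 1, and Mir449a came second. The list's sum is thus made up mostly of Mir34c. The 1 higher locus was Mir34b, at 62.5 CPM in replicate 2, against 53.6 CPM in replicate 1 (log2 ratio 0.22). The locus past 2-fold was Mir1264, also in Htr2c, with 13 counts in replicate 2, against 27 in replicate 1. Of the 6 eye loci, 5 were lower (median -0.47), among them Mir184, known from lens and cornea, with 249 counts in replicate 2, against 995 in replicate 1. The eye list's sum hardly moved, at 35060 CPM in replicate 2, against 34909 CPM in replicate 1, since it is made up mostly of Mir182 (15158 CPM in replicate 2, against 12553 CPM in replicate 1) and Mir183 (13672 CPM in replicate 2, against 14428 CPM in replicate 1). These lists contain 4 of the 5 loci with the ratio nearest to the cluster. Since the lists were drawn up with earlier results known, nothing is read from that overlap. Their part in the cluster's difference was not tested.

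Among the remaining lists, 7 of 12 neural loci averaging 20 counts or more were lower in replicate 2 (median log2 ratio -0.09), with Mir137 at 1109 CPM in replicate 2, against 1384 CPM in replicate 1 and, for Mir219a-2, 651 CPM in replicate 2, against 848 CPM in replicate 1. The neural list summed to 2798 CPM in replicate 2, against 3332 CPM in replicate 1. Its Mir124a-3 was at 0 in both. Mir124a-1 had 1 count in replicate 2, against 0 in replicate 1, and Mir124a-2 had 7, against 9. These near-identical copies have uncertain levels, so the neural sum may miss their reads. The heart and muscle list ran the other way, with a sum of 1494 CPM in replicate 2, against 628 CPM in replicate 1, and with 3 of 5 loci higher by over 2-fold. Its copies Mir133a-1 and Mir133a-2 were at 0 in both pools and are uncertain in the same way. Mir208b, in the cardiac myosin gene Myh7, had 758 CPM in replicate 2, against 212 CPM in replicate 1, and the skeletal muscle Mir206 had 537 CPM in replicate 2, against 350 CPM in replicate 1. The erythroid and leukocyte list summed to 1287 CPM in replicate 2, against 844 CPM in replicate 1, with 4 of 6 loci higher. Its leading loci were the erythroid Mir451a, at 547 CPM in replicate 2, against 218 CPM in replicate 1, and the myeloid Mir223, at 466 CPM in replicate 2, against 382 CPM in replicate 1. The 2 lower loci were Mir144, at 45.7 CPM in replicate 2, against 46.4 CPM in replicate 1, and Mir150, at 10.3 CPM in replicate 2, against 11.3 CPM in replicate 1. The endothelial Mir126a, the only measured locus of its list, had 40424 CPM in replicate 2, against 39036 CPM in replicate 1. The part of these differences in that of the cluster was not tested.

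Markers of mesenchyme and epithelium, the parts of the labelled tissue, are given last. Their presence does not single out the face. All 7 mesenchymal loci and all 7 epithelial loci reached 10 counts in both pools. The mesenchymal loci, led by Mir214 and Mir143, took 5.58% of the counts in replicate 2, against 5.25% in replicate 1, with 5 of 7 higher in replicate 2. The epithelial loci, led by Mir429 and Mir205, took 2.95% in replicate 2, against 3.31% in replicate 1. All 7 were lower in replicate 2, with log2 ratios from -0.40 to -0.04. Of the 334 loci that averaged 20 counts or more, 48.8% were lower. Among the 7, Mir429, Mir200a and Mir200b lie in 1 cluster. The part of the epithelial share in the cluster's difference was not tested.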

How the data were processed

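Small-RNA libraries of 2 pools were analysed. The authors deposited raw counts per microRNA locus on mm10 with GENCODE M4, per the file headers; the aligner and counting program are not given in the sources used here. The sense column was used (96.8% of stranded counts in replicate 2 and 97.0% in replicate 1). Lines that name no gene, 65.8% of reads in replicate 2 and 59.2% in replicate 1, were left out of library totals; unmapped reads were 38.6% in replicate 2 and 30.9% in replicate 1, and reads placed at several positions 20.5% in replicate 2 and 22.7% in replicate 1.

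From these, CPM and the log2 ratio of replicate 2 over replicate 1 were computed with no count added. Symbols and positions came from GENCODE M21 (1894 of 1973 identifiers matched) and sequences from RefSeq GRCm38.p6. Intervals are exact (Clopper-Pearson) binomial 95% intervals. A count of 0 allows 3 counts. Loci were compared at a mean count of at least 100, or 20 where stated. The loci and lists were chosen with earlier results of these data known. Named were the 3 loci, measured loci within 500 kb, the 2 most abundant of each list, the 5 nearest in ratio and the neighbours in rank. Named after values were seen were Mir184, Mir1264, Mir122, Mir218-2, Mir10a, the Mir124a copies, both Mir133a copies and the cluster with the next lowest ratio. So were Mir144, Mir150 and, within its list, Mir34b. Steps were tested on simulated data. Hairpins were folded with ViennaRNA 2.7.2 and library factors taken from DESeq2 1.42.0 and edgeR 4.0.16 (R 4.3.3); the rest used scipy 1.17.1, pandas 2.3.3 and matplotlib 3.10.9 under Python 3.11.15.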

Additional observations from a re-analysis of the deposited data

How the results depend on the processing

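The log2 ratio of each locus and of their sum stayed below 0 in all 32 recomputations that changed the library total, the strand or the count added: from -1.43 to -1.15 for Mir217, from -1.24 to -0.92 for Mir216b, from -0.94 to -0.60 for Mir216a and from -1.33 to -1.06 for the sum. The loci were chosen for being lower in replicate 2, so the unchanged sign is no evidence for that direction. The lowest values came from scaling to all reads in the file, at -1.43 for Mir217 and -1.33 for the sum. That total also holds unmapped reads. That scaling put the mean levels at 54.3 CPM for Mir217, 22.8 CPM for Mir216b, 8.16 CPM for Mir216a and 85.2 CPM for the sum, by its larger denominator. Without 1 of the replicates a level is that of the other library, from 85.8 to 194 CPM for Mir217, 39.7 to 78.3 CPM for Mir216b, 16.4 to 26.3 CPM for Mir216a and 142 to 299 CPM for the sum. The loci lower by over 2-fold numbered 6 at a minimum mean count of 10 and 1 at 500, against 2, and 9 past 1.5-fold. In either direction they numbered 20, 13, 9 and 3 with minimums of 10, 20, 50 and 500, against 5, and 16 past 1.5-fold. With a minimum of 50, 4 of the 5 loci nearest in ratio were shared and Mir7689 replaced Mir204. No paired analysis was possible because there is 1 group, and leaving out a pool gives no ratio. With 38 to 377 counts per locus, counting error limits Mir216a most.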
